A study of Mus musculus with 15 samples.

Results

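The heat shock chaperones described here are 10 genes, Hsf1, Hspa1a, Hspa1b, Hspa8, Hspa5, Hsp90aa1, Hsp90ab1, Dnajb1, Hsph1 and Hspb1, read by symbol from tables of 31017 mouse genes. All 10 were listed in each of the 15 libraries. The study made RNA immunoprecipitation (RIP) libraries to ask which RNAs are recovered with the DNA methyltransferase Dnmt1, and which carry 5-methylcytosine (m5C), in mice with a dominant mutation in Dnmt1. Dnmt1 RIP was done on fibroblasts labelled Hom (2 libraries), Het (2) and WT (2). m5C RIP was done on fibroblasts labelled Hom (1), Het (1) and WT (2), and on cortex labelled Hom (1), Het (1) and WT (1). Each tissue had 1 input library, whose antibody label names IgG and whose genotype is not given in the labels. The fibroblasts were lines grown from tails of littermates of the same sex. The labels do not give the allele, the strain, the age or the number of animals or lines behind a library, so a p-value here measures library-to-library spread that may be technical. Cells for the Dnmt1 RIP were fixed with 1% formaldehyde, whereas the m5C RIP started from 1 µg of messenger RNA.

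Chaperones bind other proteins while they fold and keep them from clumping. Hsf1 is the transcription factor that turns on the inducible chaperone genes after heat or other protein damage, by binding inverted repeats of a short unit called the heat shock element. HSP70 proteins (Hspa1a and Hspa1b inducible, Hspa8 constitutive, Hspa5 in the endoplasmic reticulum) hold client proteins in an ATP cycle that J-domain proteins such as Dnajb1 start and that nucleotide exchange factors such as Hsph1 reset. HSP90 proteins (Hsp90aa1 inducible, Hsp90ab1 constitutive) act later on signalling proteins, and Hspb1 is a small heat shock protein that binds unfolded clients without ATP. Hspa5, also called BiP, is induced by the unfolded protein response of the endoplasmic reticulum.

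The sequences show which members can be told apart by reads and what lies before their starts. Hspa1a and Hspa1b lie next to each other on the minus strand of chromosome 17 (mm10, GENCODE M21, 34969190 to 34972156 for Hspa1a and 34956436 to 34959238 for Hspa1b), each in 1 exon. Their coding sequences matched at 1916 bases, with 7 mismatches and 3 gapped positions (99.5% identity), and the longest identical run was 638 bases. The stretch of coding bases 1357 to 1416, counted from the start codon, holds 2 of the differences, in capitals:
Hspa1a: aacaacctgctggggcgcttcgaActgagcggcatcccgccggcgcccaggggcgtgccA
Hspa1b: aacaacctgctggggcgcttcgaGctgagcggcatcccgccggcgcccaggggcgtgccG
A read outside such positions could come from either gene, so their separate counts are uncertain. Of the 50-base windows along the exons, 60.3% of those of Hspa1a and 62.3% of those of Hspa1b also occur in another annotated gene. The share was 48.8% for Hspb1 (all in Hsp25-ps1), 47.5% for Hsp90aa1 and 38.6% for Hspa8 (most in Gm12346 and Gm15459), so reads of these genes could be split as well. No such window was found for Hspa5 (chromosome 2, 34771970 to 34777547, plus strand), Hsph1 (chromosome 5, 149614287 to 149636376, minus strand) or Hsf1 (chromosome 15, 76477422 to 76501913, plus strand).

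The 250 bases before the RefSeq start of Hspa1a and Hspa1b (RefSeq, GRCm38.p6, minus strand) differed at 3 bases. They are shown with the promoters of Hspb1, Hsph1 (minus strand) and Hspa5 (plus strand, as for Hspb1), with matches to GAANNTTC or TTCNNGAA (2 facing units of the heat shock element, each its own reverse complement) in capitals, and in Hspa5 the endoplasmic reticulum stress element, the site of unfolded protein response factors. For Hspa5 and Hsph1 the GENCODE gene begins further upstream than the RefSeq start, so the marked matches lie within the GENCODE gene.
Hspa1a, chr17:34972157-34972406: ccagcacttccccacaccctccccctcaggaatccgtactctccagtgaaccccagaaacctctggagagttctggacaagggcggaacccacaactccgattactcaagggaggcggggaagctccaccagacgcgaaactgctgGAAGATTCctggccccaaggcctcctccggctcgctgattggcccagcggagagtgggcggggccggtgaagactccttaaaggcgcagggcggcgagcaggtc
Hspa1b, chr17:34959239-34959488: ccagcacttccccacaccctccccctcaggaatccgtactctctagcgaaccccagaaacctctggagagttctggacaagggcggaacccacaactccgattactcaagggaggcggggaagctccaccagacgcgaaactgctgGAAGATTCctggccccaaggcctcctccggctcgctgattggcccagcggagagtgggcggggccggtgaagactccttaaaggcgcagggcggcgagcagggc
Hspb1, chr5:135887669-135887918: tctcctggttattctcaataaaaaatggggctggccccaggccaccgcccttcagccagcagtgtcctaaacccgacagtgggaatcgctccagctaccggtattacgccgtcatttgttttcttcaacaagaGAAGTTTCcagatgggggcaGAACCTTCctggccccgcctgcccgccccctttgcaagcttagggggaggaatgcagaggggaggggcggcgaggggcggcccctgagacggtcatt
Hsph1, chr5:149636316-149636565: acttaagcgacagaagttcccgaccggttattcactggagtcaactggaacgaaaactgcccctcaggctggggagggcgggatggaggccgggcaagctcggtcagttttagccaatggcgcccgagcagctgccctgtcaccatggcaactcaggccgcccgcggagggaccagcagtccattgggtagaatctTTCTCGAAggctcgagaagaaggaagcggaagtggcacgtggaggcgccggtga
Hspa5, chr2:34771840-34772089: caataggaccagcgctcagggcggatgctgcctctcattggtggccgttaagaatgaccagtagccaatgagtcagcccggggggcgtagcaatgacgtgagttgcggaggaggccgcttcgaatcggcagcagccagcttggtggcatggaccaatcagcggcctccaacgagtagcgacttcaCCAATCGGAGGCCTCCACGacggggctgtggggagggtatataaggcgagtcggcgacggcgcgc

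Hspa1a and Hspa1b each had 1 match, at 104 to 97 bases before the start, and Hspb1 had 2. Of the 6 members with a promoter in the RefSeq table (Dnajb1 is the sixth, with no match in either of its listed windows), 4 held a GAANNTTC or TTCNNGAA match, as did 12.8% of 32851 mouse promoters of the same length. The endoplasmic reticulum stress element, found in the Hspa5 promoter alone among the members, was in 0.113% of promoters. A longer heat shock element of 3 units was in none of the 6 and in 0.466% of all. Promoters of Hsf1, Hspa8, Hsp90aa1 and Hsp90ab1 are not shown.

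Levels below are CPM, counts scaled to 1000000 gene counts of the library after leaving out Lars2, Gm42418, Gm26917 and Gm10800, which together took 4.01 to 63.5% of the counts of a library. Gene counts per library ran from 217173 (Dnmt1 RIP, WT library 1) to 4913482 (cortex input). The fibroblast input held 228852 counts and 6006 detected genes, so 3 counts there, the limit that a count of 0 allows, stand for 31.5 CPM; such limits cover counting error only. The m5C library of WT fibroblasts numbered 1 held at least the count of the Hom library in each of 31017 genes, with 249780 counts more in all and equal counts in 7163 of the 19511 genes detected in Hom. These 2 files do not look independent, so WT library 1 is shown but was left out of the tests. Fibroblast markers (12 genes) summed to 24760 to 30910 CPM in fibroblast m5C RIP but to 621 to 22120 CPM in Dnmt1 RIP and 2113 CPM in the fibroblast input, where 5 of the 12 were at 0. Neuron markers (12 genes, none at 0 in a RIP library) summed to 3683 to 6149 CPM in Dnmt1 RIP, against 599 to 1241 CPM in fibroblast m5C RIP and 9862 to 10440 CPM in cortex m5C RIP, so the Dnmt1 RIP libraries do not show the marker profile of the fibroblast m5C libraries. Dnmt1 mRNA itself, 903 to 8868 CPM (here of all counts) in Dnmt1 RIP, gives no check of the genotype labels, since they do not say that the mutation alters its level.

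Together the members made up 0.199% (fibroblast input) to 0.523% (fibroblast m5C, Het) of the counts. Levels of different genes are compared here per kilobase of exon (CPM per kb). On that scale Hsp90ab1 was the highest member in each of the 15 libraries, at 189 CPM per kb in the fibroblast input and 295 to 747 CPM per kb in the others. Hspa8 came second in Dnmt1 RIP, cortex and input libraries, but after Hspa5 in the 4 fibroblast m5C libraries. Hspb1 ranked 5 in the 4 fibroblast m5C libraries, at 28.3 to 79.1 CPM per kb, above Hsph1 at 9.61 to 11.1 CPM per kb. Hspa1a was the lowest member or among those at 0 in each library.

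**Figure D1:**
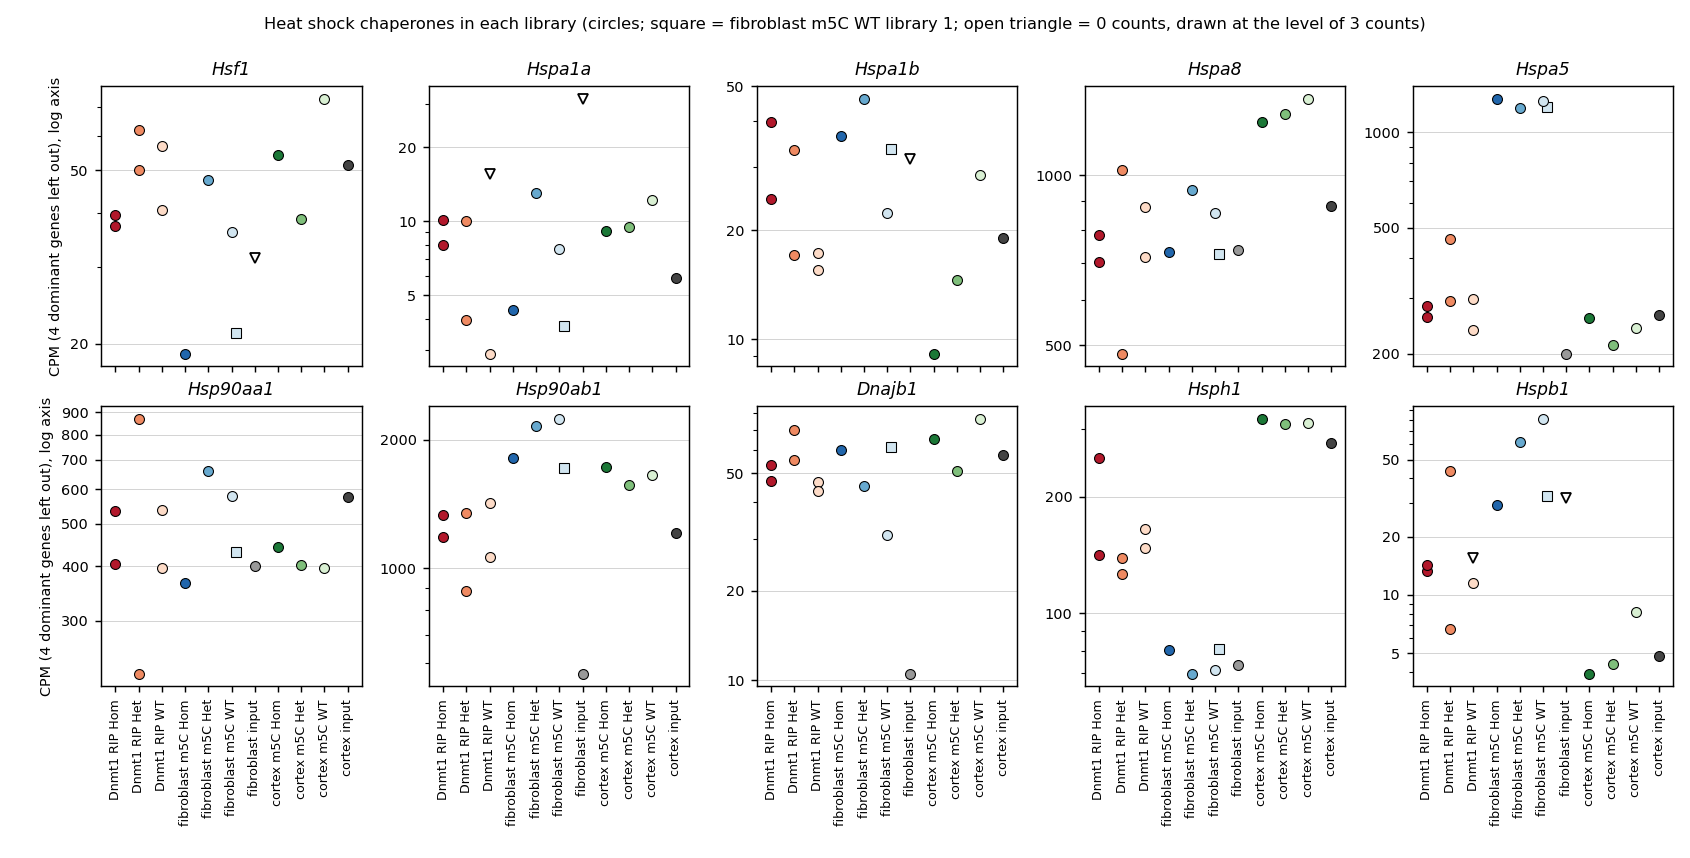
Level of each heat shock chaperone in each library, in CPM without the 4 dominant genes (log axis, own range per panel), by antibody, tissue and genotype. Points are libraries, squares the WT library left out of tests, and open triangles a count of 0 drawn at 3 counts; Hspa5 sits between 1194 and 1280 in the fibroblast m5C libraries but between 199.8 and 461 in all others.

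Hsf1, the regulator, had 37.2 and 39.5 CPM in Hom, 50.1 and 61.9 CPM in Het and 56.9 and 40.5 CPM in WT Dnmt1 RIP libraries. In m5C RIP it had 19.0, 47.7 and 36.1 CPM in Hom, Het and WT fibroblasts and 54.3, 38.6 and 73.2 CPM in Hom, Het and WT cortex. The fibroblast input held 0 counts and the cortex input 51.6 CPM. Both Hom Dnmt1 RIP libraries lay below the Het and WT libraries, the nearest narrowly, while Het and WT overlapped. With all counts as the scale, Hom library 2 (34.5 CPM) lay above WT library 2 (30.2 CPM). The number of all genes that separate in this way was not counted. Each m5C value is a single library, and neither tissue was higher throughout.

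Of the inducible HSP70 pair, Hspa1b had 39.9 and 24.4 CPM in Hom, 33.4 and 17.1 CPM in Het and 15.5 and 17.4 CPM in WT Dnmt1 RIP libraries. These rest on few reads, 15 and 29 counts in Hom, 20 and 13 in Het and 3 and 6 in WT. In m5C RIP, Hspa1b had 36.5, 46.2 and 22.3 CPM in Hom, Het and WT fibroblasts, and 9.13, 14.6 and 28.5 CPM in Hom, Het and WT cortex. Hom and Het were thus above WT in fibroblasts and below it in cortex, with 1 library each. In fibroblast WT library 1, the one left out of the tests, Hspa1b had 33.6 CPM (27 counts), near the 36.5 CPM in Hom. Hspa1a lay between 0 and 13 CPM in all 15 libraries, from 0 to 27 counts. GENCODE places 564 of its exon bases (19.0%) opposite the antisense gene Gm20481, and no source used here gives the strand setting of the counting.

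Hspa8, the constitutive HSP70, had 702 and 782 CPM in Hom, 483 and 1022 CPM in Het and 879.9 and 718 CPM in WT Dnmt1 RIP libraries. It had 732, 943 and 859 CPM in Hom, Het and WT fibroblast m5C RIP, and 1242, 1281 and 1367 CPM in Hom, Het and WT cortex m5C RIP. The Het pair spanned the range of the 6 Dnmt1 RIP libraries, and the tissues did not overlap. Hspa5 had 282 and 261 CPM in Hom, 294 and 461 CPM in Het and 238 and 298 CPM in WT Dnmt1 RIP libraries, all far under its fibroblast m5C levels.

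Hsp90aa1 had 404 and 536 CPM in Hom, 227 and 871 CPM in Het and 538 and 396 CPM in WT Dnmt1 RIP libraries. The lowest and the highest of the 6 were both Het. Hsp90ab1 had 1332 and 1181 CPM in Hom, 884 and 1349 CPM in Het and 1423 and 1065 CPM in WT Dnmt1 RIP libraries, so the genotypes overlapped here too. Het library 2, the higher of the Het pair for Hsf1, Hspa8, Hspa5, Hsp90aa1, Hsp90ab1, Dnajb1 and Hspb1, had macrophage and microglia markers (10 genes) summing to 5140 CPM, against 112 to 1395 CPM in the other 5 Dnmt1 RIP libraries. Their part in these levels was not tested.

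Dnajb1, the J-domain partner, had 53.2 and 47.1 CPM in Hom, 55.1 and 69.8 CPM in Het and 46.6 and 43.4 CPM in WT Dnmt1 RIP libraries. In m5C RIP, Dnajb1 had 59.8, 45.3 and 30.9 CPM in Hom, Het and WT fibroblasts and 65.2, 50.99 and 76.4 CPM in Hom, Het and WT cortex, so the tissues overlapped. Hsph1, the exchange factor, had 253 and 141 CPM in Hom, 139 and 127 CPM in Het and 166 and 148 CPM in WT Dnmt1 RIP libraries. Hspb1 had 13.3 and 14.3 CPM in Hom, 6.68 and 43.5 CPM in Het and 0 and 11.6 CPM in WT Dnmt1 RIP libraries. For Dnajb1 all 4 mutant libraries lay above both WT libraries on this scale, the nearest narrowly. With all counts as the scale, Hom library 1 (19.4 CPM) lay below both WT libraries (41.4 and 32.4 CPM). For Hsph1 the Hom and WT libraries overlapped, and both Het libraries lay below them, the nearest narrowly. With all counts as the scale, Het library 2 (119 CPM) lay above WT library 2 (110 CPM). For Hspb1 Het overlapped both other genotypes, and both Hom libraries (5 and 17 counts) lay above both WT libraries (0 and 4 counts). With all counts as the scale, its Hom library 1 (4.86 CPM) lay below WT library 2 (8.64 CPM). How many of all genes separate in these ways was not counted.

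The first question was whether the Dnmt1 genotype changed the recovery of these transcripts. With edgeR's quasi-likelihood test and Benjamini-Hochberg adjustment over the genes tested (threshold 0.05), none of the 9 members that passed the filter on low counts (Hspa1a did not) was called in Dnmt1 RIP. This held for Hom over WT (0% of 13589 genes called), Het over WT (0%) and Hom over Het (0%), so no gene passed in these fits; at an unadjusted p under 0.05 there were 309, 868 and 629 genes, and DESeq2 called 0, 26 and 15. No member was among the genes with an unadjusted p under 0.05. The median log2 fold change of the 9 members was 0.02 for Hom over WT, 0.34 for Het over WT and -0.29 for Hom over Het, against 0.01, 0.03 and -0.02 over all genes tested. The estimate furthest from 0 was Hspb1, at 1.88 for Het over WT with a 95% interval of -0.78 to 4.55. It was 0.18 without Het library 2 and 1.14 without WT library 1, and without WT library 2 the WT group is at 0 counts, so no fold is given. Hspa5 had the interval -0.98 to 0.98 for Hom over WT, and Hsp90aa1 had -1.01 to 1.63 for Het over WT, so these intervals are wide.

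In m5C RIP the genotypes were compared across both tissues, with tissue as a covariate and 1 library per genotype and tissue. Of 14064 genes, 0.121% were called for Hom over WT and 0.0711% for Het over WT, and none of the 10 members was among them (DESeq2 called 0 genes in either). At an unadjusted p under 0.05 there were 651 genes for Hom, with 1 member, Hspb1, and 632 genes for Het, with 0 members. Hspb1 had 29.2, 61.6 and 81.6 CPM in Hom, Het and WT fibroblasts, and 3.91, 4.37 and 8.13 CPM in Hom, Het and WT cortex. Both mutant libraries were below WT in each tissue, though cortex rests on 9, 6 and 10 counts in Hom, Het and WT. Its log2 fold change was -1.36 ± 0.44 (SE) for Hom over WT (unadjusted p = 0.00229, edgeR adjusted p = 0.418) and -0.54 ± 0.39 for Het over WT (edgeR adjusted p = 0.9995). It did not pass the adjustment. In WT library 1, the one left out of the tests, Hspb1 had 32.4 CPM. The 95% intervals were narrower than in Dnmt1 RIP for the abundant members. For Hom over WT they were -0.42 to 0.50 for Hspa5, -0.62 to 0.33 for Hsp90ab1 and -0.67 to 0.26 for Hspa8. With 1 library per genotype and tissue, the spread here comes from how far genotype differences disagree between the tissues. These widths thus do not measure spread between replicates. In the comparison of the antibodies that follows, 1 fibroblast m5C library per genotype leaves the spread to the Dnmt1 RIP libraries. Its intervals were wide, at -2.11 to 2.69 for Hspa8 (Hom over WT). The genotype effects of Dnmt1 RIP and m5C RIP in fibroblasts were also compared directly, and 0% of 16831 genes were called for Hom and for Het, members included (290 and 339 genes at an unadjusted p under 0.05; DESeq2 called 0 and 0).

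**Figure D2:**
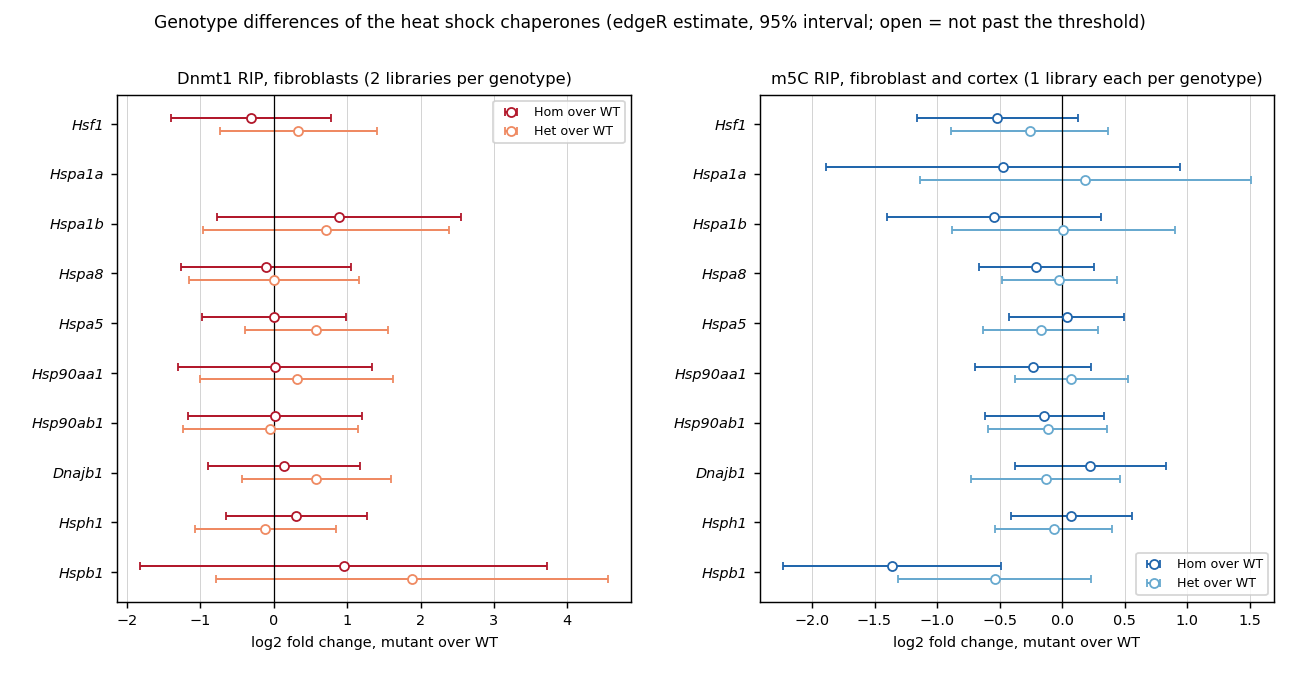
Log2 fold change of each member for Hom over WT and Het over WT (edgeR estimate with its 95% interval) in Dnmt1 RIP, left, and in m5C RIP over both tissues, right; open points did not pass the adjusted threshold, and the 2 panels have their own axes. Hspb1 in m5C RIP, Hom over WT, at -1.36, is the estimate whose interval stays clear of 0.

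The tissues differed far more than the genotypes. In m5C RIP, Hspa5 had 1280, 1194 and 1259 CPM in Hom, Het and WT fibroblasts, against 259, 213 and 241 CPM in Hom, Het and WT cortex. Hspa5 was thus higher in each of these 3 fibroblast libraries than in any cortex m5C library, with a log2 fold change of 2.53 ± 0.20 (SE; edgeR adjusted p = 1.28e-27). Hspb1, with the values above, also did not overlap and was higher in fibroblasts (3.48 ± 0.36, edgeR adjusted p = 7.46e-18). Hsph1 went the other way. It had 80.2, 69.8 and 71.3 CPM in Hom, Het and WT fibroblasts and 319, 308 and 309.7 CPM in Hom, Het and WT cortex, a log2 fold change of -1.94 ± 0.20 (edgeR adjusted p = 4.11e-18).

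These 3 members were called in every setting tried. Macrophage and microglia markers summed to 7331 to 13540 CPM in these fibroblast libraries and 154 to 172 CPM in cortex, and smooth muscle markers to 388 to 1162 CPM in fibroblasts and 54.6 to 63.4 CPM in cortex; their part in the tissue differences was not tested. In all, 7 of 10 members were called, 5 higher and 2 lower in fibroblasts, while 64.1% of the 14064 genes tested were called, so 7 of 10 is near the share of all genes. The median log2 fold change was 0.16 over the members and 0.04 over all genes. The other 4 calls were smaller: Hspa1b (1.23 ± 0.35, edgeR adjusted p = 0.00101), Hsp90aa1 (0.48 ± 0.19, 0.0213), Hsp90ab1 (0.47 ± 0.20, 0.0311) and Hspa8 (-0.48 ± 0.19, 0.0216). Hsp90ab1 had 1813, 2152 and 2240 CPM in Hom, Het and WT fibroblasts and 1725, 1564 and 1654 CPM in Hom, Het and WT cortex. Hsp90aa1 had 366, 661 and 579 CPM in Hom, Het and WT fibroblasts and 442, 404 and 396 CPM in Hom, Het and WT cortex, so the tissues overlapped. Each of these 4 lost its call when some single library was left out. Hspa1b was lost without the fibroblast Het library (edgeR adjusted p = 0.100) or the cortex Het library (0.0816). Hspa8 was lost without either Hom or either WT library (edgeR adjusted p from 0.0744 to 0.172). Both HSP90 genes were lost without either Het or either WT library (edgeR adjusted p up to 0.366 for Hsp90aa1 and 0.276 for Hsp90ab1). Hsp90aa1 and Hsp90ab1 were also not called with WT library 1 included (edgeR adjusted p = 0.130 and 0.111), with total counts as the only scaling (0.105 and 0.128) or without the filter (0.0927 and 0.0888). Hspa1a and Hspa1b summed as 1 gene, a choice made after seeing the data, gave 0.83 (edgeR adjusted p = 0.0102). Hsf1 (-0.49 ± 0.27), Dnajb1 (-0.37 ± 0.25) and Hspa1a (-0.14 ± 0.58) were not called, though Hsf1 was called without the fibroblast Het library (edgeR adjusted p = 0.00762), without the cortex Het library (0.00449) and with total counts as the only scaling (0.0407).

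The shift between the 2 abundant HSP70 genes is seen within each library, without scaling between libraries. Hspa5 made up 63.6, 55.9 and 59.4% of the Hspa5 and Hspa8 counts in Hom, Het and WT fibroblast m5C RIP, and 17.3, 14.2 and 15.01% in Hom, Het and WT cortex m5C RIP. In Dnmt1 RIP of fibroblasts it made up 28.6 and 25.04% in Hom, 37.8 and 31.1% in Het and 21.3 and 29.3% in WT. The fibroblast input had 21.3% (95% exact binomial interval 13.4 to 31.3%, from 19 and 70 counts) and the cortex input 23.1% (21.9 to 24.2%). The m5C libraries lay above the input of their tissue in fibroblasts and below it in cortex. Neuron markers, however, summed to 2818 CPM in the fibroblast input against 599 to 1241 CPM in fibroblast m5C RIP. That input thus does not show the marker profile of those m5C libraries, and the part of this in the share was not tested. A fibroblast m5C library was at 55.9% or more and every other library at 37.8% or less. The Hsp90aa1 share of the HSP90 pair was similar in both tissues, at 16.8 to 23.5% in fibroblast and 19.3 to 20.5% in cortex m5C RIP, and was 41.3% in the fibroblast input and 32.3% in the cortex input. In Dnmt1 RIP it ran from 20.5 to 39.2%, both ends in Het.

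**Figure D3:**
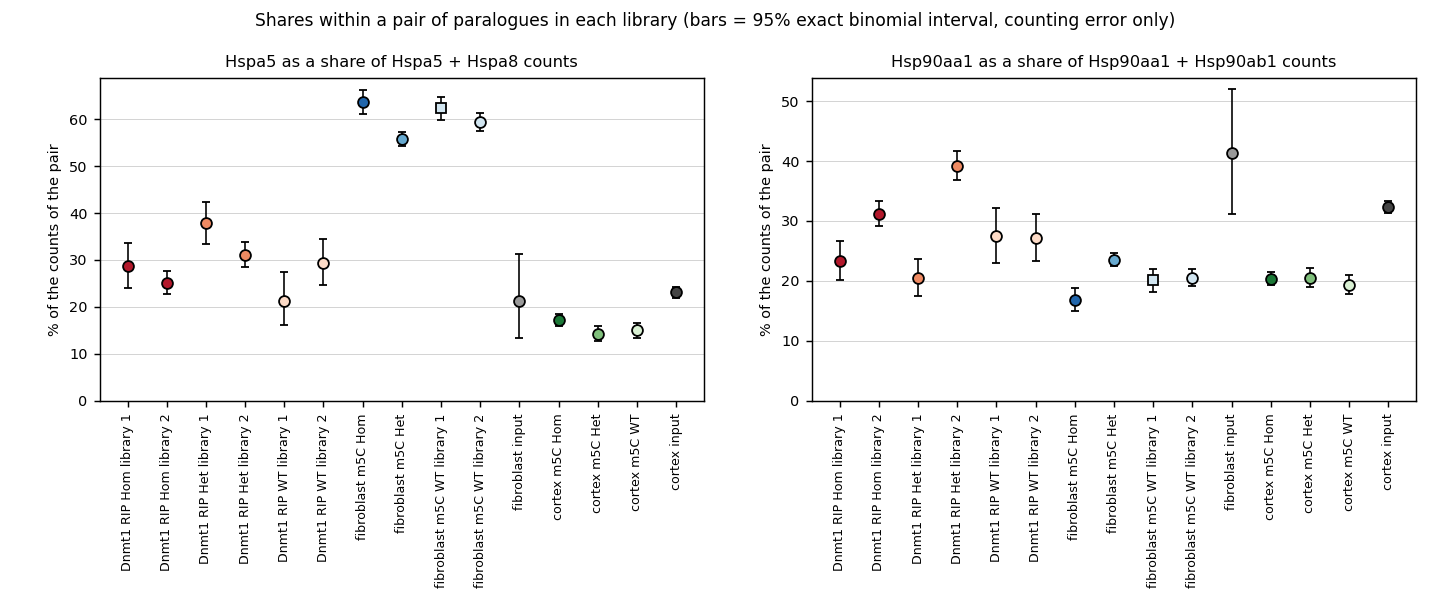
Hspa5 as a percentage of Hspa5 plus Hspa8 counts, left, and Hsp90aa1 as a percentage of Hsp90aa1 plus Hsp90ab1 counts, right, in each library, with 95% exact binomial intervals that cover counting error only. The 4 fibroblast m5C libraries, WT library 1 (square) included, lie between 55.9 and 63.6% for Hspa5, above all 11 others.

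The antibodies were compared within fibroblasts, over 6 Dnmt1 RIP and 3 m5C RIP libraries with genotype as a covariate. Hspa5 had 238 to 461 CPM in Dnmt1 RIP (median 288) and 1280, 1194 and 1259 CPM in m5C RIP of Hom, Het and WT, a log2 fold change of -2.70 ± 0.36 (SE; edgeR adjusted p = 0.000144). Hspb1 had 0 to 43.5 CPM in Dnmt1 RIP (median 12.4) and 29.2, 61.6 and 81.6 CPM in m5C RIP of Hom, Het and WT, and was lower by -2.40 ± 0.54 (edgeR adjusted p = 0.00351). Hsp90ab1 had 884 to 1423 CPM in Dnmt1 RIP (median 1256.5) and 1813, 2152 and 2240 CPM in m5C RIP, and was lower by -1.44 ± 0.39 (edgeR adjusted p = 0.0108). Hspa5 and Hsp90ab1 did not overlap between the antibodies, and Hspb1 did.

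Hspa1b was also called lower in Dnmt1 RIP (-1.17 ± 0.36, edgeR adjusted p = 0.0188). These are 4 of 10 members, all lower, where 35.8% of 16831 genes were called. The median log2 fold change was -0.97 over the members and 0.24 over all genes. Of the 4 calls, Hspa5 alone held in every setting: without the m5C WT library only Hspa5 was called, with edgeR adjusted p of 0.0744 for Hspa1b, 0.0739 for Hsp90ab1 and 0.0604 for Hspb1. Hspa1b was also lost without the m5C Het library (edgeR adjusted p = 0.152), the m5C Hom library (0.0556) or Dnmt1 RIP Het library 2 (0.0510), and without the last Hsp90aa1 was called (0.0412). DESeq2 did not call Hspa1b (adjusted p = 0.0514) but called Hspa8 lower (-0.70, adjusted p = 0.0413). With total counts as the only scaling, Hspa5 and Hspb1 kept their calls and Hspa1b (edgeR adjusted p = 0.177) and Hsp90ab1 (0.214) did not. Hspa8 (-0.80 ± 0.37), Hsp90aa1 (-0.74 ± 0.41), Hspa1a (-1.15 ± 0.77), Dnajb1 (-0.41 ± 0.29) and Hsf1 (-0.13 ± 0.31) were not called by edgeR. Hsph1 was the member with a positive estimate: 127 to 253 CPM in Dnmt1 RIP (median 144) and 80.2, 69.8 and 71.3 CPM in m5C RIP of Hom, Het and WT did not overlap, but 0.45 ± 0.28 was not called (edgeR adjusted p = 0.215). Fixed cells and isolated messenger RNA entered these assays, and the fibroblast and neuron marker sums given above differed between them as well. Macrophage and microglia markers summed to 112 to 5140 CPM in Dnmt1 RIP and 7331 to 13540 CPM in fibroblast m5C RIP. The part of these differences in the chaperone results was not tested, and in such bulk libraries fewer cells of a type and less RNA per cell cannot be told apart.

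**Figure D4:**
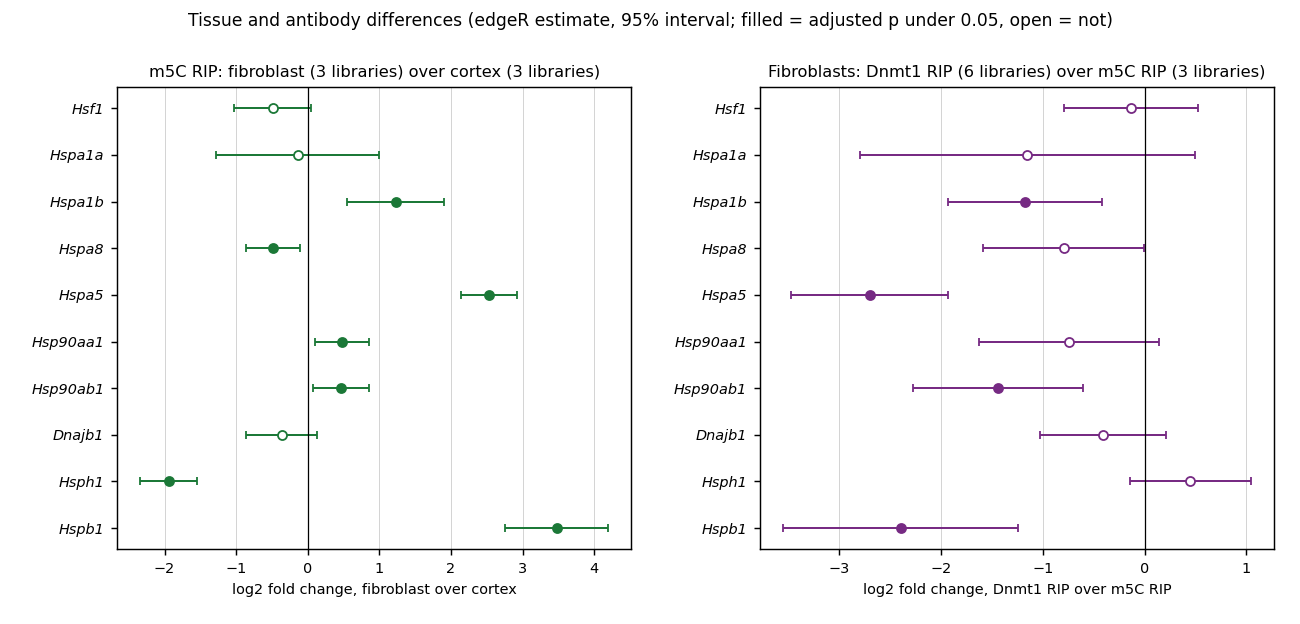
Log2 fold change of each member with its 95% interval (edgeR) for fibroblast over cortex in m5C RIP, left, and for Dnmt1 RIP over m5C RIP in fibroblasts, right; filled points passed the adjusted threshold of 0.05. Hspa5 and Hspb1 are high at left and low at right, and Hsph1 is the lowest at left and the one positive estimate at right.

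Against input, no member was called. For m5C RIP over input, fitted over both tissues, 0.0139% of 14372 genes were called (566 at an unadjusted p under 0.05, 96 by DESeq2), and all 10 members had positive estimates, from 0.08 for Hsp90aa1 to 1.19 for Hsp90ab1, where 68.1% of all genes were positive. In cortex, where the input is deep, Hspa8 had 1242, 1281 and 1367 CPM in m5C RIP of Hom, Het and WT and 882 CPM in input, and Hsp90ab1 had 1725, 1564 and 1654 CPM in m5C RIP and 1208 CPM in input. Hsp90aa1 was below its input there, with 442, 404 and 396 CPM in m5C RIP and 577 CPM in input. In fibroblasts Hspa5 had 1194 to 1280 CPM in m5C RIP and 199.8 CPM (19 counts) in input. Without the cortex input, members were called, as were many other genes, all against the 1 shallow fibroblast input. Of the members called, Hsf1, Hspa1b and Hspb1 had 0 counts in that input. For Dnmt1 RIP over input, 4.99% of 16558 genes were called and 0 of the 9 members tested (1 had an unadjusted p under 0.05, and DESeq2 called 0). Without WT library 1, Hom library 1 or Hom library 2, 0 genes were called. Hsf1, Hspa1a, Hspa1b and Hspb1 had 0 counts in the fibroblast input, so their fitted fold changes are no bounds and are not given. Hspa8 had 483 to 1022 CPM in Dnmt1 RIP and 736 CPM in input, an estimate of -0.11 ± 0.64.

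The other chaperone genes and endoplasmic reticulum stress genes (79 listed, 78 in the tables, chosen with earlier results of these data known) give the setting of the members. In m5C RIP of fibroblasts over cortex, 75 passed the filter, of which 45 were called higher and 11 lower, where 32.8% of all genes tested were called higher and 31.3% lower. Of the 19 endoplasmic reticulum stress genes, 15 were called higher and 0 lower, with a median log2 fold change of 1.40. Among them were Pdia3, a disulfide isomerase (2.74 ± 0.20), Hsp90b1, the HSP90 of the endoplasmic reticulum (2.36 ± 0.20), and Atf4, a stress transcription factor (2.43 ± 0.20). Hsp90b1 had 1356, 1486 and 1428 CPM in Hom, Het and WT fibroblasts and 324, 316 and 281 CPM in Hom, Het and WT cortex.

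All 9 chaperonins in the tables, subunits of the barrel-shaped folding machines of cytosol and mitochondria, were called higher in fibroblasts, with a median of 1.58 and Hspe1 the largest at 2.51 ± 0.22. All 4 other small heat shock proteins tested were called higher, among them Hspb8 (2.07 ± 0.35) and Cryab (0.77 ± 0.23). Co-chaperones divided into 10 higher and 2 lower, led by Bag3, a partner of HSP70 (3.67 ± 0.27), and J-domain proteins into 6 higher and 6 lower, with Dnajb11 of the endoplasmic reticulum at 1.99 and Dnajb5 at -2.23. Of the other HSP70 genes, the mitochondrial Hspa9 was higher (2.02 ± 0.20), while Hspa12a (-3.20 ± 0.23) and Hspa4l (-2.49 ± 0.22), an HSP110 relative of Hsph1, were lower. Hspa4l had 39.4, 27.9 and 38.6 CPM in Hom, Het and WT fibroblasts and 249.9, 205 and 196 CPM in Hom, Het and WT cortex.

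In Dnmt1 RIP over m5C RIP of fibroblasts, 49 of these 75 genes were called lower and 2 higher, where 20.7% of all genes tested were called lower and 15% higher. All 19 endoplasmic reticulum stress genes were called lower, with a median of -1.73, and so were all 9 chaperonins, with a median of -1.46. The 2 genes called higher were Hspa12a (1.59 ± 0.29, edgeR adjusted p = 0.000939) and Hspa4l (1.07 ± 0.31, edgeR adjusted p = 0.0156), the pair named above as lower in fibroblasts. Leaving out the WT, the Het or the Hom fibroblast m5C library each left 1 gene called higher, and including WT library 1 gave 4. With total counts as the only scaling, 22 genes were called lower. The tissue and the antibody comparison use the same 3 fibroblast m5C libraries.

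**Figure D5:**
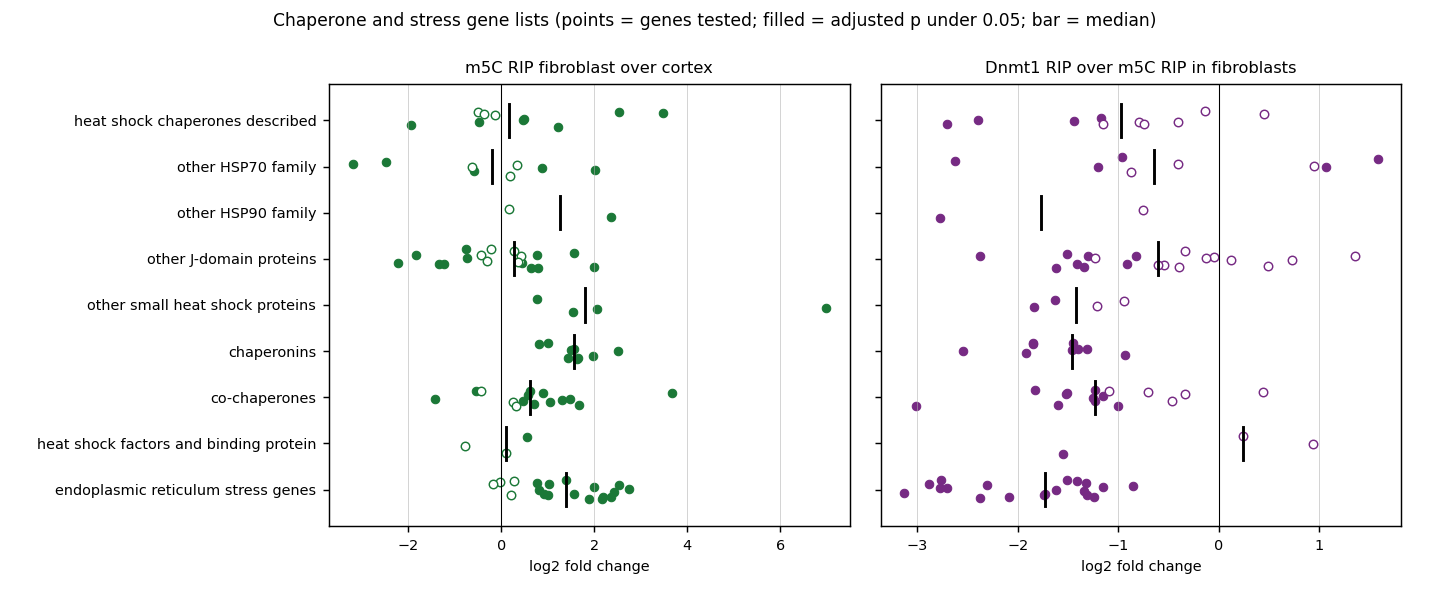
Log2 fold changes of the 10 members (those tested) and of the other chaperone and stress gene lists, for fibroblast over cortex in m5C RIP, left, and Dnmt1 RIP over m5C RIP in fibroblasts, right; points are genes, filled where the adjusted p is under 0.05, and bars are medians. The chaperonins and endoplasmic reticulum stress genes lie to the right at left and to the left at right.

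By genotype none of the listed genes was called in either assay. In Dnmt1 RIP the endoplasmic reticulum stress list had a median log2 fold change of 0.10 for Hom over WT, 0.36 for Het over WT and -0.48 for Hom over Het. Ddit3, a transcription factor of prolonged stress, had 15.95 and 19.3 CPM in Hom, 45.1 and 84.3 CPM in Het and 5.18 and 23.2 CPM in WT. Its estimate for Het over WT, 2.10 ± 0.72, had an edgeR adjusted p of 0.732. Hspb8 had 2.66 and 5.88 CPM in Hom, 35.1 and 21.1 CPM in Het and 36.2 and 26.04 CPM in WT, and its estimate for Hom over WT, -2.61 ± 0.84, had an edgeR adjusted p of 1. The Het libraries for Ddit3 and the Hom libraries for Hspb8 did not overlap the other genotypes, but neither gene passed the adjustment. These levels rest on few reads. Ddit3 in WT library 1 lay under the level of 3 counts there (15.5 CPM), as did Hspb8 in Hom library 1 (7.98 CPM). Both were picked for a small p within their list, and how many of all genes separate in this way was not counted.

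Likeness and correlations were measured in log2 CPM, here of all counts. Across the 15 libraries, the genes most like Hspa5 were Actb (Pearson r = 0.993), Lamp2 (0.989), Oaz1 (0.984), Hsp90b1 (0.982) and Myadm (0.979), out of 10825 candidates. For the mean of Hspa1a, Hspa1b, Dnajb1 and Hsph1 they were Becn1 (0.972), Gtf3c4 (0.972), Map3k2 (0.971), Wsb2 (0.971) and Prkar2b (0.968). Among the members themselves, Hsf1 and Dnajb1 had r = 0.90, Hspa5 and Hspb1 r = 0.85, and Hspa5 and Hsph1 r = -0.22. The libraries share depth and the share taken by dominant genes, so these values are descriptions.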

How the data were processed

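The 15 files hold whole-number read counts per gene, which the authors deposited without normalization. The submitters' processing notes name Trim Galore 0.4.1 for trimming, HISAT2, featureCounts and the build mm10. 6 tables also list 5 entries that name no gene, which were left out: reads not aligned (63.2 to 89.5% of all reads listed), in no feature (4.36 to 18.4%), of low alignment quality (1.37 to 4.97%), not unique (0.412 to 2.74%) and ambiguous (0.236 to 0.908%). Reads in genes were 3.79 to 10.1%. Gene counts ran from 217173 to 4913482 per library. Genes were kept with filterByExpr (minimum count 10, minimum total 15), scaled by TMM and tested with edgeR 4.0.16 (quasi-likelihood, Benjamini-Hochberg adjustment over all genes tested, threshold 0.05) in R 4.3.3. Levels and figures were made with Python 3.11.15 and matplotlib 3.10.9. Alternatives were other scalings, no filter, DESeq2 1.42.0, the 4 dominant genes left out, single libraries left out, the fibroblast m5C WT library 1 included, only the genotypes compared, and a replicate block. Of the gene symbols, 30532 matched GENCODE M21. The fits were tested on simulated data. The members and the gene lists were chosen with earlier results of these data known. Named genes are the members, genes from each list that passed the threshold (up to 8 a comparison) or otherwise had the smallest p (up to 4), and the 5 genes most like Hspa5 and the inducible members. Counts of Hspa1a and Hspa1b were used as deposited. No source used here says how reads matching both were treated.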

Additional observations from a re-analysis of the deposited data

Results flagged for a closer look

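In m5C RIP, ratios between single libraries were taken for each of the 10 members, for Het over WT and for Hom over WT. With all counts as the scale, 3 of them pointed one way in fibroblasts and the other way in cortex. Their 95% counting intervals were clear of 0 in both tissues. How many of all genes meet this rule was not counted, so the 3 are no result about the members as a set. Hspa1b, Het over WT, had a log2 ratio of 1.02 (0.43 to 1.75; 96 and 26 counts) in fibroblasts and -0.87 (-1.81 to -0.11; 20 and 35 counts) in cortex, a difference of 1.89 on the log2 scale. Hsp90aa1, Hom over WT, had -0.67 (-0.88 to -0.46) in fibroblasts and 0.18 (0.03 to 0.34) in cortex, a difference of -0.85. Hsp90ab1, Hom over WT, had -0.31 (-0.41 to -0.21) in fibroblasts and 0.09 (0.01 to 0.16) in cortex, a difference of -0.40. With the 4 dominant genes left out, the Hsp90ab1 ratio in cortex was 0.06 (-0.02 to 0.14), an interval that includes 0, and the lower bound for Hsp90aa1 in cortex was 0.0004. The fibroblast WT library in these ratios was library 2. In WT library 1, which does not look independent of Hom, Hsp90ab1 had 1416 CPM of all counts, below the 1713 CPM of Hom. The direction for Hsp90ab1 in fibroblasts thus depended on the WT library used. Hsp90aa1 had 356 CPM in WT library 1 against 346 CPM in Hom, and Hspa1b 27.7 CPM against 44.4 CPM in Het. Each ratio compares 1 library with 1 library, so the intervals cover counting error only, and the differences between tissues were not tested.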

How the results depend on the processing

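Depth limits the low members: 3 counts stand for 15.5 CPM in Dnmt1 RIP WT library 1 and 31.5 CPM in the fibroblast input. No member was called by genotype in any setting tried, and some of the estimates, listed below, changed sign. Total counts as the only scaling moved the median of all genes by -0.39 for Hom over WT, -0.33 for Hom over Het, 0.32 for the antibodies, -0.13 for the tissues, 0.31 for m5C RIP over input, 0.12 for Dnmt1 RIP over input, and -0.53 (Hom over WT) and -0.18 (Het over WT) for Dnmt1 RIP minus m5C RIP. The causes of the changes below were not tested.

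The replicate numbers were not used as pairs in the main design, and the labels do not say what a shared number means. Correlations of same-numbered deviations were -0.0059 (WT and Het), 0.20 (WT and Hom) and 0.06 (Het and Hom) over 13589 genes. These correlations cannot exclude a shared batch. With the replicate block, 0 genes and 0 members were called in each Dnmt1 RIP genotype comparison. Hspa8 was then at -0.048 for Het over WT and Hsp90aa1 at -0.057 for Hom over WT.

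Total counts alone reversed, for Dnmt1 RIP, Hspa8 (-0.000888, Het over WT), Hspa5 (-0.40), Hsp90aa1 (-0.33), Hsp90ab1 (-0.45), Dnajb1 (-0.27) and Hsph1 (-0.26) for Hom over WT, and Hspa1b (-0.18), Hsp90ab1 (-0.34) and Hsph1 (-0.041) for Hom over Het. They also reversed Hspa8 (0.045) and Hsph1 (0.0035) for m5C Het over WT, Hsf1 between antibodies (0.24) and Hspa8 over input (0.98). Other reversals were small: without the filter, Hsp90ab1 0.10 and Hsph1 0.018 (Dnmt1 RIP Het over WT), Hsp90ab1 -0.021 (Hom over Het) and Hspa8 0.011 (m5C Het over WT); Hspa5 for Hom over WT at -0.010 by RLE, -0.012 by DESeq2 and -0.0072 without dominant genes; Hspa1b for m5C Het over WT at -0.019 by RLE and -0.12 by DESeq2; and with WT library 1, Hsf1 0.0056, Hspa8 0.088 and Hsp90ab1 0.010.

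Counts of genes called moved as follows. Without the filter they were 192 (Dnmt1 RIP Het over WT), 13 (Hom over WT), 113 (Hom over Het), 11 (m5C Hom over WT), 2 and 1 (Het and Hom, Dnmt1 RIP minus m5C RIP), 108 (m5C RIP over input) and 1944 (Dnmt1 RIP over input). DESeq2 gave 26, 15, 0 and 0 for Dnmt1 RIP Het over WT and Hom over Het and m5C Het and Hom over WT, and 96 and 265 over input. RLE gave 2 and 7 (m5C Het and Hom) and 12 (m5C over input). Total counts gave 2 (Dnmt1 RIP Hom over WT), 2 and 10 (m5C Het and Hom), 0 and 1335 (over input) and 2 members between antibodies. Including WT library 1 gave 0 and 0 (m5C Het and Hom) and 8 (m5C over input).

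Leaving out each library in turn gave 0 to 38 genes (Dnmt1 RIP Het over WT), 0 to 35 (Hom over Het), 0 to 16 (m5C Het over WT), 7 to 80 (m5C Hom over WT), 3286 to 6140 (antibodies), 11 to 6061 (m5C over input) and 0 to 850 (Dnmt1 RIP over input), and 4 to 6 (tissue), 1 to 4 (antibodies) and 0 to 7 (m5C over input) members. Member estimates whose sign changed ranged, for Dnmt1 RIP Het over WT, from -0.47 to 0.44 (Hspa8), -0.78 to 0.99 (Hsp90aa1), -0.24 to 0.21 (Hsp90ab1) and -0.22 to 0.073 (Hsph1). For Hom over WT they ranged from -0.21 to 0.051 (Hspa8), -0.20 to 0.32 (Hspa5), -0.23 to 0.28 (Hsp90aa1), -0.055 to 0.17 (Hsp90ab1) and -0.074 to 0.66 (Hsph1). For Hom over Het they ranged from -0.33 to 0.80 (Hspa1b), -0.52 to 0.40 (Hspa8), -0.94 to 0.83 (Hsp90aa1), -0.16 to 0.28 (Hsp90ab1) and -1.68 to 0.81 (Hspb1). For m5C Het over WT they ranged from -1.06 to 0.50 (Hsf1), -0.48 to 0.82 (Hspa1a), -1.07 to 1.05 (Hspa1b), -0.17 to 0.14 (Hspa8), -0.24 to 0.36 (Hsp90aa1), -0.23 to 0.014 (Hsp90ab1) and -0.61 to 0.50 (Dnajb1). For m5C Hom over WT they ranged from -1.55 to 0.58 (Hspa1b), -0.077 to 0.13 (Hspa5), -0.78 to 0.20 (Hsp90aa1), -0.39 to 0.065 (Hsp90ab1) and -0.23 to 0.90 (Dnajb1). The tissue estimate of Hspa1a ranged from -0.69 to 0.13. Over input, m5C RIP ranged from -0.13 to 3.12 (Hspa5) and -0.44 to 0.89 (Hsp90aa1), with Hspa1b between -0.20 and 8.57, the higher value fitted without the cortex input against 0 counts and so no measure or bound of a fold, and Dnmt1 RIP from -0.31 to 0.080 (Hspa8) and -0.27 to 0.41 (Hsp90aa1).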
